A study of Mus musculus with 12 samples.

Results

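CD2 and the SLAM receptors are cell surface proteins through which lymphocytes touch other blood cells. The set described here was listed by gene name, with earlier results of these data known, and held Cd2, Cd48, Cd6, Slamf1, Slamf6, Ly9, Cd84, Cd244a and Sh2d1a, which are 9 genes. Every probe set whose only annotated gene was one of these was taken. This gave 13 probe sets of 8 genes among 36701 probe sets and 15964 named genes on 3 array types, while Cd84 had no probe set under its name in the annotation used. Of the 13 probe sets, 9 from 7 genes read above the detection limit on all 4 arrays of their type and were tested, and the other 4 were under the limit on all 4. The name of the set fits most of its members, although Cd6 belongs to another protein family and Sh2d1a encodes an adaptor inside the cell.

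Total RNA came from the unsorted thymocytes of adult H-2b AND-TCR–transgenic mice, which carry a rearranged TCR that sees peptide on MHC class II and are selected toward the CD4 lineage, and of C57BL/6 mice, the wild type, which also carry H-2b. The Affymetrix arrays U74Av2, U74Bv2 and U74Cv2 each received 2 hybridizations per group, which made 12 arrays, and arrays with the same number were run on the same day. The sources used here give neither the promoter of the transgene, nor the strain background beyond H-2b, nor the number and sex of the mice. The methods call the hybridizations of a group independent experiments, without saying whether mice, RNA or only arrays were separate, so the p-values measure the spread between these experiments, part or all of which may be technical. According to the array records the groups were washed on different fluidics modules, 1 for each group, and module and group cannot be told apart.

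In mice, CD2 on T cells binds CD48, a lipid-anchored relative that is found on nearly all blood cells. The receptors encoded by Slamf1, Slamf6, Ly9 and Cd84 mostly bind the same receptor on the opposite cell, whereas the receptor of Cd244a, best known from NK cells, also binds CD48. Their cytoplasmic tails recruit SAP, the small SH2 adaptor encoded by Sh2d1a, which brings the kinase Fyn to the receptor. In the thymus, SLAM receptors on double-positive thymocytes and SAP are known for their part in the making of NKT cells. CD6 is a scavenger receptor of T cells, related to CD5, and binds CD166, the product of Alcam.

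Among these genes Cd2 was the member that passed the test, with a higher level in the AND-TCR–transgenic group. The Cd2 probe set 95373_at on U74Av2 read 7082 and 7581 in the first and second C57BL/6 hybridizations and 14231 and 13355 in the AND-TCR–transgenic ones, in scaled intensity units. The 2 groups were far apart compared with the arrays inside each group. The mean was 7331 ± 353 (SD, n = 2) in C57BL/6 and 13793 ± 619 (SD, n = 2) in AND-TCR–transgenic thymocytes. The ratio of AND-TCR–transgenic over C57BL/6 was 2.01 for the first pair of hybridizations and 1.76 for the second, while the second C57BL/6 array read 1.07 times the first. In limma the fold was 1.88 with a 95% interval of 1.52 to 2.34, the log2 fold change was 0.91 (SE 0.13), and the Benjamini-Hochberg adjusted p over all tested probe sets was 0.0330. The Cd2 call was lost, like every other call in the series, when any of the 4 arrays was left out, at log2 fold changes of 0.86 to 0.96. Such fits leave 1 array in a group and cannot judge Cd2 by itself. The call was also lost with no trend in the prior variance (limma adjusted p 0.176). Of all tested probe sets, 97.0% had a lower log2 fold change than Cd2.

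**Figure D1:**
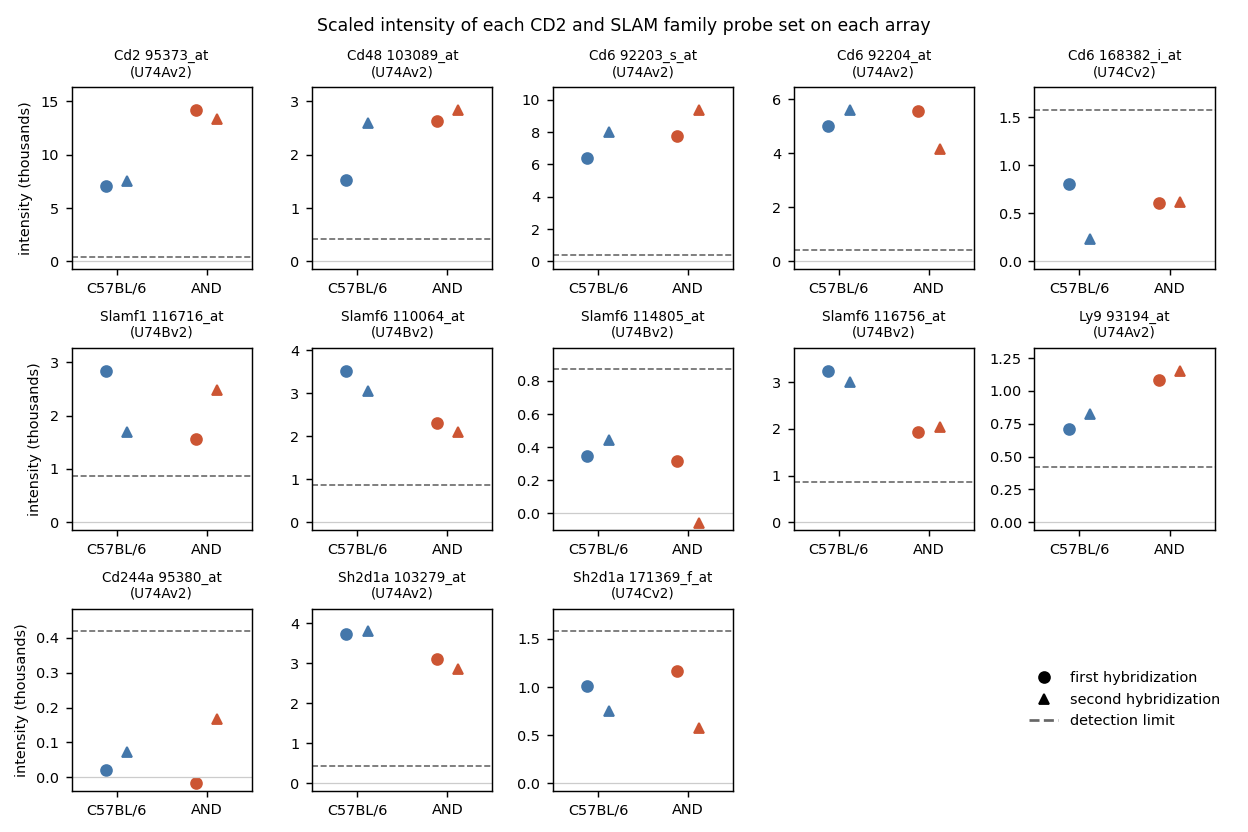
Scaled intensity (linear axis, separate for each panel) of the 13 probe sets on each array, C57BL/6 in blue and AND-TCR–transgenic in orange, with circles for first and triangles for second hybridizations and a dashed line at the detection limit of the array type. Cd2 read 7082 and 7581 in C57BL/6 and 14231 and 13355 in AND-TCR–transgenic thymocytes, and 4 probe sets lay under the limit on all 4 arrays.

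Across the whole set, 1 of the 9 tested probe sets was called at an adjusted p under 0.05, against 1.05% (135 of 12844) of all tested probe sets. Upward calls made up 0.483% of all tested probe sets, which for the members is Cd2, and downward calls made up 0.568%, with none among the members (limma, 2 of 9 lower at an unadjusted p under 0.05). With hybridization number as a block, 306 probe sets (2.38%) were called in all, and Cd2 was again the 1 member called (adjusted p 0.00160). At an unadjusted p under 0.05 there were 3 of 9 member probe sets, against 14% of all tested probe sets. These 3 were Cd2 and both tested probe sets of Slamf6. With the block, 1 member probe set was higher and 0 were lower at an unadjusted p under 0.05 (limma). The signs were mixed, with 4 positive and 5 negative log2 fold changes and a median of -0.14 beside 0.02 over all tested probe sets. Exact permutation of 2 against 2 arrays cannot go below p = 0.333 (two-sided), so no such test was used.

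Of the ligands, Cd48 encodes the partner of CD2. Its probe set 103089_at on U74Av2 read 1532 and 2594 in C57BL/6 and 2626 and 2842 in AND-TCR–transgenic thymocytes. Both transgenic arrays lay above both wild-type arrays, but the second wild-type array nearly reached them. The C57BL/6 arrays differed from each other by 1.69-fold, as much as the groups did in the first experiment (1.71), whereas the ratio in the second was 1.10. The log2 fold change was 0.45 (SE 0.29, 95% interval -0.23 to 1.14) with a limma adjusted p of 0.558, so a difference between the groups was not shown for Cd48 and a change of up to 2.21-fold upward lies within the interval.

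Ly9 encodes SLAMF3, a receptor that binds itself on a neighbouring cell. The probe set 93194_at on U74Av2 read 712 and 827 in C57BL/6 and 1084 and 1156 in AND-TCR–transgenic thymocytes, all above the detection limit of 421. The 2 groups did not overlap, and the ratios of 1.52 and 1.40 lay close together. The log2 fold change of 0.54 (SE 0.32, 95% interval -0.20 to 1.29) did not pass (limma adjusted p 0.512).

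Slamf6 encodes Ly108, which is abundant on double-positive thymocytes. Its probe set 116756_at on U74Bv2 read 3253 and 2998 in C57BL/6 and 1933 and 2035 in AND-TCR–transgenic thymocytes. A second probe set of the gene, 110064_at, read 3534 and 3054 in C57BL/6 and 2317 and 2109 in AND-TCR–transgenic thymocytes. In both, the transgenic arrays lay below the wild-type arrays without overlap, in each experiment. C57BL/6 over AND-TCR–transgenic was 1.57-fold for 116756_at, with a log2 fold change of -0.65 (SE 0.22, 95% interval -1.21 to -0.10), and 1.49-fold for 110064_at, with -0.57 (SE 0.22, 95% interval -1.11 to -0.03). Neither passed after adjustment, at limma adjusted p-values of 0.287 and 0.333. With the replicate block the SEs were 0.28 and 0.26 (limma adjusted p 0.397 and 0.427), and neither was under an unadjusted p of 0.05. These 2 probe sets measured the same RNA on the same arrays and do not replicate each other. The third Slamf6 probe set, 114805_at, was under the U74Bv2 limit of 869 throughout, at 349 and 444 in C57BL/6 and 318 and -55.7 in AND-TCR–transgenic thymocytes, and gave no level.

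Slamf1 encodes SLAM itself, the first named receptor of the family. Its probe set 116716_at on U74Bv2 read 2847 and 1687 in C57BL/6 and 1563 and 2479 in AND-TCR–transgenic thymocytes. The groups overlapped and the 2 experiments pointed in opposite directions, with ratios of 0.549 and 1.47. The log2 fold change of -0.15 had the widest error of the tested members (SE 0.39), with an interval of 0.457-fold to 1.77-fold and a limma adjusted p of 0.908. The sign of this value turned when the first array of either group was left out.

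Cd244a gave no level in either group. The probe set 95380_at on U74Av2 read 19.5 and 73.6 in C57BL/6 and -17.8 and 168 in AND-TCR–transgenic thymocytes, all under the limit of 421, so that no fold is given.

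**Figure D2:**
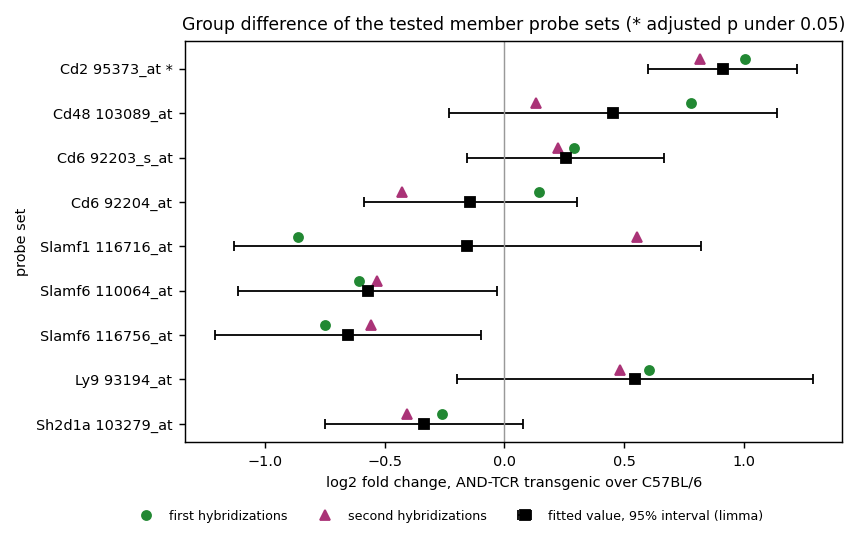
Log2 fold change (AND-TCR–transgenic over C57BL/6) for the 9 tested member probe sets, with black squares and bars for the limma value and its 95% interval, green circles for the ratio of the first hybridizations and purple triangles for that of the second. Cd2, marked with an asterisk, was the member with an adjusted p under 0.05. Both Slamf6 probe sets had intervals below 0 in this fit, which has no replicate block. The 2 experiments were on opposite sides of 0 for Slamf1 and for 92204_at of Cd6.

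Sh2d1a, the gene for SAP, read 3724 and 3796 in C57BL/6 and 3106 and 2859 in AND-TCR–transgenic thymocytes at probe set 103279_at on U74Av2. The transgenic arrays lay below the wild-type arrays, and C57BL/6 over AND-TCR–transgenic was 1.26-fold. The log2 fold change was -0.34 (SE 0.18, 95% interval -0.75 to 0.08) and did not pass (limma adjusted p 0.458). The other Sh2d1a probe set, 171369_f_at on U74Cv2, read 1006, 747, 1169 and 578 in the same order, all under the limit of 1579. Sh2d1a lies on chromosome X in the RefSeq annotation of GRCm38.p6, and the sex-linked transcripts differed between the groups. Xist, the RNA of the inactive X chromosome, read 2878 and 3001 in C57BL/6 and stayed under the limit in AND-TCR–transgenic thymocytes, at least 6.99-fold lower (limma adjusted p 0.0133). Eif2s3y, a Y-linked gene, was under the limit on both C57BL/6 arrays and read 1649 and 1529 in AND-TCR–transgenic thymocytes, at least 3.77-fold higher (adjusted p 0.0422). The sex of the mice and the group can thus not be told apart for any member.

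Cd6 was measured by 3 probe sets that did not point the same way. On U74Av2, 92203_s_at read 6366 and 8033 in C57BL/6 and 7780.0 and 9383 in AND-TCR–transgenic thymocytes, and 92204_at read 5018 and 5620.5 in C57BL/6 and 5552 and 4171 in AND-TCR–transgenic thymocytes. The groups overlapped at both. The log2 fold change was 0.26 (SE 0.17, limma adjusted p 0.584) at 92203_s_at and -0.14 (SE 0.19, adjusted p 0.802) at 92204_at, so that the gene had no settled direction. The third, 168382_i_at on U74Cv2, was under the limit on all 4 arrays. In Affymetrix naming the suffixes _s, _f and _i mark probe sets designed under relaxed rules on uniqueness or probe number, and other transcripts may add to their readings.

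**Figure D3:**
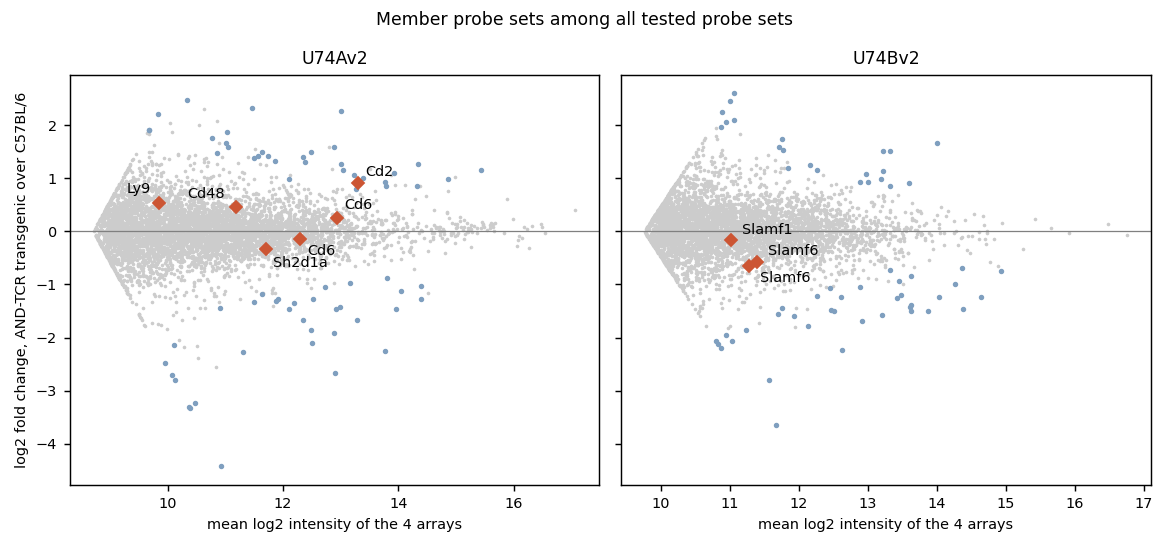
Log2 fold change (AND-TCR–transgenic over C57BL/6) against mean log2 intensity of the 4 arrays for every tested probe set of U74Av2 (left) and U74Bv2 (right) in grey, with called probe sets in blue and the 9 member probe sets as orange diamonds. The slanted left edges come from values set to the detection limit. Cd2, at 0.91, sits among the called probe sets, and the other 8 member probe sets lie within the grey cloud.

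Set side by side, 3 of the 9 tested probe sets (Cd2, Cd48 and Ly9) had both AND-TCR–transgenic arrays above both C57BL/6 arrays, where 23% of all tested probe sets did. Another 3 (both of Slamf6, and Sh2d1a) had both below, where 21.4% of all tested probe sets did. The 2 experiments gave the same direction at 7 of 9 member probe sets, beside 57.7% of all tested probe sets. These 9 come from 7 genes, as Slamf6 and Cd6 each count with 2 probe sets on the same arrays. In the RefSeq annotation of GRCm38.p6 the SLAM genes neighbour each other on chromosome 1 in the order Cd244a, Ly9, Slamf7, Cd48, Slamf1, Cd84, Slamf6, and Cd2 and Cd6 lie on chromosomes 3 and 19. Along this row the log2 fold changes went from positive at Ly9 and Cd48 (0.54 and 0.45) to near 0 at Slamf1 (-0.15). Slamf6, at the other end, was negative (-0.65 and -0.57), and none of these values passed the test. Cd244a, Slamf7 and Cd84 had no tested probe set, and a trend along the row was not tested. The differences between the members were not tested, and levels of different probe sets are not compared here.

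Of the tested probe sets on U74Av2 with a gene symbol, 4996 were candidates for a pattern like that of Cd2, taken as the distance between their log2 values on the 4 arrays, each less its own mean. The nearest was Ltb, lymphotoxin beta, which read 9477 and 10876 in C57BL/6 and 20049 and 18466 in AND-TCR–transgenic thymocytes (distance 0.07). Ltb rose by 1.90-fold (log2 fold change 0.92, SE 0.14, limma adjusted p 0.0359). Acp6, a lysophosphatidic acid phosphatase gene, lay at a distance of 0.10 with a log2 fold change of 0.81 (SE 0.28, adjusted p 0.258). Zfp36l2, an RNA-binding protein gene, also came out near (0.08), but it read 142 and 290 in C57BL/6 against 785 and 752 in AND-TCR–transgenic thymocytes, so its C57BL/6 values were set to the limit of 421 and its distance, which comes from that limit, shows no likeness to Cd2. With 4 arrays in 2 groups, such a likeness rests mostly on the size of the fold. These genes were chosen by closeness to Cd2 on the same arrays, so their folds and p-values are not separate results.

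The signalling partners of the family were taken as lists. Of the effectors downstream of SLAM receptors and SAP, 12 of 14 genes had a probe set and 11 were tested, of which 0 passed in either direction (3 of 11 at an unadjusted p under 0.05 and also with the replicate block, all higher), with 7 positive and 4 negative log2 fold changes and a median of 0.38. Beside these counts, 960 of all 12844 tested probe sets were higher at an unadjusted p under 0.05 (limma), and 6677 had a positive log2 fold change. Fyn, the kinase that SAP recruits, read 1301 and 1813 in C57BL/6 and 3686 and 3787 in AND-TCR–transgenic thymocytes. The transgenic arrays lay above the wild-type arrays by more than their spread, with ratios of 2.83 and 2.09. Its log2 fold change of 1.28 (SE 0.24) missed the threshold in limma (adjusted p 0.0671) and passed it with the replicate block (0.00914) and on the asinh scale (0.0397). Prkcq, the gene of protein kinase C theta, read 2999 and 3086 in C57BL/6 and 4606 and 6664 in AND-TCR–transgenic thymocytes. The groups were apart, and the log2 fold change was 0.86 (SE 0.21, limma adjusted p 0.132, with the block 0.0252). The third gene past the test with the block was Ptpn6, a phosphatase gene that was singled out after its values were seen, with a log2 fold change of 0.67 (SE 0.15, adjusted p 0.113, with the block 0.0469). A block with crossed numbers paired arrays of different days. With it Fyn (limma adjusted p 0.00154) and Prkcq (0.0121) passed as well, and Ptpn6 did not (0.0517). The 3 genes thus did not all behave alike under the crossed numbers, and the part of the shared day in passing with the block was not tested. Zbtb16, the transcription factor gene of NKT cells, was under the limit on all arrays.

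Of the partners of CD2 and CD6, all 11 genes had a probe set and 8 were tested, and 0 passed in limma with or without the block (2 of 8 at an unadjusted p under 0.05, both higher). All 8 log2 fold changes were positive, from 0.02 to 0.44, with a median of 0.34, and those of Cd2bp2, Cd2ap and Pstpip1 changed sign when 1 array was left out. Among all 12844 tested probe sets, 960 were higher at an unadjusted p under 0.05 (limma) and 6677 had a positive log2 fold change. Cd5, the scavenger receptor related to CD6, read 5512 and 6434 in C57BL/6 and 7793 and 8402 in AND-TCR–transgenic thymocytes, with a log2 fold change of 0.44 (SE 0.15, limma adjusted p 0.255). Lcp2, the gene of the adaptor SLP-76, had a log2 fold change of 0.42 (SE 0.15, adjusted p 0.268). The groups of both genes did not overlap. Alcam, the ligand gene of CD6, was under the limit at every probe set, as was Sdcbp. Sh2d2a read above its limit on 1 array of each group and was not tested. Among the other SLAM receptors and SAP-like adaptors, 3 of 5 genes had a probe set and 1 was tested, Sh2d1b1, at a log2 fold change of -0.19 (SE 0.32, limma adjusted p 0.843). Slamf7 read above its limit of 1579 on the second AND-TCR–transgenic array alone, at 1892.

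**Figure D4:**
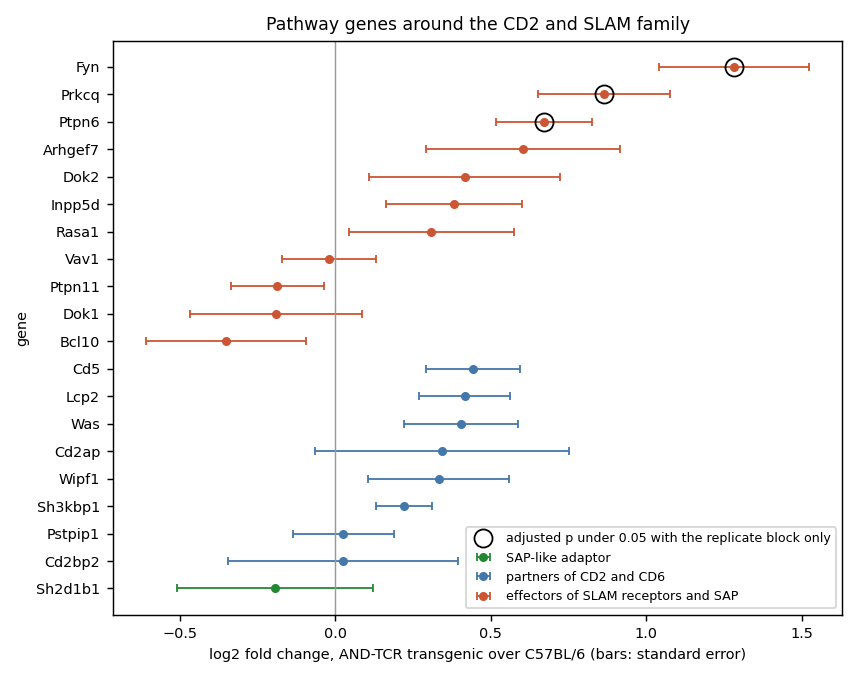
Log2 fold change (points, AND-TCR–transgenic over C57BL/6, with bars of 1 SE from limma) for the tested effectors of SLAM receptors and SAP, partners of CD2 and CD6 and the SAP-like adaptor, each gene by its tested probe set with the highest mean. No gene passed in the fit without the block, and rings mark Fyn, Prkcq and Ptpn6, which passed with the replicate block.

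Markers of thymocyte stages differed between the groups, and in bulk RNA fewer cells of a type and less RNA per cell cannot be told apart. The T lineage was present in both groups, with 10 of 10 measured genes tested (Cd3e at a log2 fold change of 0.06), and 2 of these fell, Cd8a and Cd8b1, named after their values were seen. At an unadjusted p under 0.05 (limma) 2 were higher and 3 lower. Cd4 was also lower without passing (log2 fold change -0.56, SE 0.16, limma adjusted p 0.194). Cd8a and Cd8b1 count again in the list of double-positive markers. Of 11 tested markers of double-positive thymocytes 7 fell (9 with the block) and 0 rose, with a median log2 fold change of -1.27 and a summed U74Av2 intensity (1 probe set per gene, negative readings at 0) of 151848 to 154481 in C57BL/6 and 52796 to 61066 in AND-TCR–transgenic thymocytes. Rag1, a recombinase gene of these cells, fell by 2.25 on the log2 scale (SE 0.14, limma adjusted p 0.00222). Of 12 tested markers of mature single-positive thymocytes 5 rose (6 with the block) and 0 fell, with a median of 1.22 and a summed level of 44108 to 49275 in C57BL/6 and 79211 to 83116 in AND-TCR–transgenic thymocytes. Their log2 fold changes were positive at 11 and negative at 1, Il7r, named after its value was seen. Il7r was lower on both transgenic arrays without passing (log2 fold change -0.44, SE 0.27, limma adjusted p 0.537). The part of these shifts in the values of Cd2, Slamf6, Ly9, Cd48 and Sh2d1a was not tested.

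Markers of other cells were low or did not pass. Of B cell markers 6 were tested and 0 passed (1 higher and 2 lower at an unadjusted p under 0.05), with 2 positive and 4 negative log2 fold changes. With the block 1 passed, Blk, which was higher and was named after its value was seen. Cd79a was at least 2.26-fold lower (limma adjusted p 0.111). Ebf1 and Cd22 were under the limit on all arrays. The summed level was 25651 to 26471 in C57BL/6 and 22511 to 24155 in AND-TCR–transgenic thymocytes. It says little of the list as a whole, since Ighm alone read 19965 and 22305 in C57BL/6 and 16012 and 16775 in AND-TCR–transgenic thymocytes. Of myeloid markers 7 were tested and 0 passed (0 at an unadjusted p under 0.05), with Itgam, Adgre1 and Fcer1g under the limit and a summed level of 4187 to 6125 in C57BL/6 and 6629 to 6849 in AND-TCR–transgenic thymocytes. Of NK and cytotoxic markers, 6 (Ncr1, Klrk1, Klrd1, Gzmb, Prf1 and Klre1) were under the limit on all arrays and 2 were tested, and Gzma, a granzyme gene named after its value was seen, passed with the block alone (log2 fold change 1.67, SE 0.31, limma adjusted p 0.0621, with the block 0.00469). The other tested gene, Nkg7, read 11239.8 and 12904 in C57BL/6 and 10305 and 8182 in AND-TCR–transgenic thymocytes on U74Cv2 (log2 fold change -0.39, SE 0.22, limma adjusted p 0.495), so that the signs were opposite. The summed NK level on U74Av2, without Nkg7, was 1708 to 2423 in C57BL/6 and 4311 to 4318 in AND-TCR–transgenic thymocytes. Dendritic (3 tested) and thymic epithelial markers (2 tested) had 0 passing in either fit and 0 at an unadjusted p under 0.05. Their summed levels were 1985 to 3238 and 663 to 986 in C57BL/6 and 2121 to 3016 and 1273 to 1642 in AND-TCR–transgenic thymocytes. Hba-a1, the 1 tested red blood cell gene, had a log2 fold change of -0.96 (SE 0.22, adjusted p 0.106) and passed with the block alone (0.00877), beside a summed red blood cell level of 9798 to 11433 in C57BL/6 and 4378 to 6639 in AND-TCR–transgenic thymocytes. The part of these cells in the members' values was not tested.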

How the data were processed

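The authors hybridized thymocyte RNA to Affymetrix arrays and analyzed the scans with Microarray Suite 4.0. They deposited linear intensities, some of them negative, whose value type and scaling target the sources used here do not state. Trimmed means of the arrays were 1000.4 to 1000.9, and 23.1% to 48.9% of probe sets per array were above the detection limit. One array record, that of the first C57BL/6 U74Av2 array, names a rescan.

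Arrays of a type were scaled to a common trimmed mean (2% cut at each end). The noise SD was taken as 1.4826 times the median absolute value of negative readings. The detection limit was 2 noise SDs (421, 869 and 1579 for U74Av2, U74Bv2 and U74Cv2), to which lower values were set before log2. Where no array of a group reached the limit, the fold is a bound, written "at least". Tests were run on probe sets with every array of C57BL/6, or every array of AND-TCR–transgenic thymocytes, above the limit, and used limma 3.58.1 with R 4.3.3 (lmFit, eBayes with trend, 1 fit per array type, Benjamini-Hochberg over all 12844 tested, called at 0.05), which was checked on simulated data. The 66 control probe sets of each type were left out. Array types were normalized separately, and comparisons were made within a type. Figures were drawn with matplotlib 3.10.9 in Python 3.11.15.

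Same-numbered hybridizations shared a day in the array records and so pair across the groups. The correlation of their deviations from the group means was 0.04 on U74Av2, -0.12 on U74Bv2 and -0.23 on U74Cv2. Alternatives were a replicate block, other floors, no filter, quantile normalization, an asinh scale, no trend, adjustment within each array type, each array left out, and for lists the mean over probe sets. A block with crossed numbers was added after seeing the data.

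Names came from the platform annotation, in which 29197 probe sets had 1 symbol, 724 had several and 6978 had none. RefSeq identifiers (GRCm38.p6) matched 29110 and changed 0 symbols. By plan, named genes were every member, the pathway genes that passed and the 2 with the largest fold per pathway list. At most 4 marker genes per list and the 3 patterns nearest to Cd2 were also planned. Further list genes were named after their values were seen, among them those under the limit on all arrays. A list gene is given by its tested probe set with the highest mean. The members and lists were chosen with earlier results of these data known.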

Additional observations from a re-analysis of the deposited data

How the results depend on the processing

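The Cd2 call held with the replicate block (adjusted p 0.00160), limits at 1 and 4 noise SDs (0.0404 and 0.0275), no filter (0.0498), quantile normalization (0.0277), the asinh scale (0.0244), adjustment within each array type (0.0268) and the crossed block (0.000664). It did not hold without the trend or with any 1 array left out, so the number of members called higher was 0 without the trend and 0 to 0 over the fits that each left out 1 array (1 to 2 at an unadjusted p under 0.05). A lone array was then assumed to vary like the others. Over all probe sets, 62 were called higher in the fit reported and 155 with the replicate block, 414 with no filter, 111 on the asinh scale, 1 without the trend, 229 with the crossed block and 0 to 0 with 1 array left out (593 to 1078 at an unadjusted p under 0.05). Called lower were 73 in the fit reported, 151 with the block, 402 with no filter, 127 on the asinh scale, 9 without the trend, 226 with the crossed block and 0 to 0 with 1 array left out (696 to 890 at an unadjusted p under 0.05). The replicate block changed the call of no other member. Without the filter most residual variances were 0, and limma gave that fit as unreliable. Leaving out 1 array turned the sign of some log2 fold changes, none of them called: 92204_at of Cd6 ranged from -0.35 to 0.064, Slamf1 from -0.53 to 0.22, Sh2d1b1 from -0.47 to 0.076, Cd2ap from -0.16 to 0.85, Cd2bp2 from -0.43 to 0.48, Pstpip1 from -0.13 to 0.19, and Vav1 from -0.14 to 0.094. With the mean over probe sets, the median log2 fold change went from -0.055 to -0.093 for T lineage genes, from -0.25 to -0.38 for B cell genes, from -0.07 to -0.37 for dendritic cell genes and from 0.38 to 0.31 for the effectors of SLAM receptors and SAP. With 2 arrays per group, members at SEs of 0.13 to 0.39 (log2) set how small a difference could be called. The cause of these changes was not tested.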
